A study of Homo sapiens with 4 samples.

Results

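The genes described here were 10 members of the BCL2 family, taken as the rows of the deposited expression table that carry their names. All 10 were found among the 29833 genes of the table, and all 10 averaged 1 FPKM or more over the 4 libraries. They were sorted by role into 3 prosurvival genes (BCL2, BCL2L1, MCL1), 2 effector genes (BAX, BAK1) and 5 BH3-only genes (BBC3, PMAIP1, BCL2L11, BID, BMF). FPKM is a fragment count scaled by transcript length and by the total of the library, so that it can be compared between genes of different length.

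The cells were Reh-6-MPR, a derivative of Reh, a human B-cell acute lymphoblastic leukemia line, in which resistance to the thiopurine 6-mercaptopurine (6-MP) had been built up by stepwise exposure to the drug. All 4 libraries came from this resistant line, which was kept without 6-MP before the experiments, so the parental line takes no part in any comparison. The Blank library was from cells given PBS as vehicle, the His library from cells given 4 mM histidine, the 6-MP library from cells given 1.0 µg/mL 6-MP, and the His+6-MP library from cells given both at these doses, each for 48 h. Each condition had 1 library. No value below has a replicate check, no test of a treatment was possible, and the 95% intervals given cover the counting of reads within a library only. The comparison asks how the transcripts of the mitochondrial death pathway differ when histidine, 6-MP or both are given to resistant cells.

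BCL2 family proteins decide whether the outer mitochondrial membrane stays intact. Prosurvival members hold the effectors BAX and BAK in check; BH3-only proteins are stress sensors that bind the prosurvival proteins, and some of them also activate the effectors directly. Once BAX and BAK form pores, cytochrome c leaves the mitochondria and the apoptosome activates caspases. In B-lineage leukemia the balance of these proteins is the target of BH3-mimetic drugs, and much of that balance is set on the protein, which was not measured in these libraries.

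Promoter windows are shown for BBC3, BMF, PMAIP1 and BAX because these were the 4 members with the largest differences between the His+6-MP library and the others. Each window holds the 250 bases before a RefSeq transcript start in GRCh38.p14, 5′ to 3′ on the strand of the gene. Where a gene had several listed starts, only the first was used, so a window describes that start alone. Capitals mark exact matches, on either strand, to a CCAAT box (CCAAT or ATTGG), an E-box (CACGTG), a CRE core (TGACGT or ACGTCA) or an AP-1 site (TGANTCA); no 2 of the marked matches overlap. BBC3 lies at chr19:47232668-47232917 on the minus strand, BMF at chr15:40108880-40109129 on the minus strand, PMAIP1 at chr18:59899746-59899995 on the plus strand, and BAX at chr19:48954625-48954874 on the plus strand.
BBC3: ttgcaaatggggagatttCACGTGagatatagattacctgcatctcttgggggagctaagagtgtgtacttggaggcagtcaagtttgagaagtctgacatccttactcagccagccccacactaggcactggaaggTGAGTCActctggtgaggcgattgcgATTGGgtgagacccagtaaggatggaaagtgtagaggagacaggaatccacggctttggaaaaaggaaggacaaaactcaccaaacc
BMF: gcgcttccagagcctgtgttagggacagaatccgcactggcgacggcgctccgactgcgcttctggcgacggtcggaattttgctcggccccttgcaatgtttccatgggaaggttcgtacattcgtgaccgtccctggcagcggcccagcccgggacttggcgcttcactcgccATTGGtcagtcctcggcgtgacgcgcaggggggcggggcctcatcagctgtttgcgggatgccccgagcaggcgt
PMAIP1: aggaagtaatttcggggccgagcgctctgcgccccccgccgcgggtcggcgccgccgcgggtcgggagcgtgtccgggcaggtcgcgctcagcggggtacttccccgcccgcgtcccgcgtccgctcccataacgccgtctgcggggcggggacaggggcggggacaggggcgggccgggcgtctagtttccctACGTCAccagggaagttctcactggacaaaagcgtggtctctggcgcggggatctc
BAX: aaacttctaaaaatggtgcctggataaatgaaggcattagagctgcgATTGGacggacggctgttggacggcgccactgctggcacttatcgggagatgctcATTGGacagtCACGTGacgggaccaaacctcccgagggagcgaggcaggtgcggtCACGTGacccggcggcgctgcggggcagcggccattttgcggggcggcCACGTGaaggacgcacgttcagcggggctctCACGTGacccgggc

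These 4 windows differed in the motifs they held. The BAX window held 4 E-boxes, ending 133, 88, 40 and 9 bases before the start, and the BBC3 window held 1 E-box, ending 227 bases before it. Among all 27305 promoter windows of the same length, 6.49% held an E-box. The BBC3 window also carried 1 AP-1 match, which 6.60% of all windows held, and the PMAIP1 window carried 1 CRE core, which 7.42% held. CCAAT boxes were found in the BAX, BBC3 and BMF windows and in 33.0% of all windows. The GC content was 49.2% for BBC3, 65.2% for BMF, 72.8% for PMAIP1 and 62.8% for BAX, against a median of 58% over all windows. The BBC3 window was also poor in CpG, with an observed to expected ratio of 0.278. The other 3 windows ranged from 0.980 to 1.09, and the median of all windows was 0.556.

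Among the remaining members, the BAK1 window was also poor in CpG, with an observed to expected ratio of 0.248. A window was found for 9 of the 10 members, with MCL1 the exception. Of the 9 windows, 6 held the GC box GGGCGG (or CCGCCC), found in 42.3% of all windows, and 5 held a CCAAT box. A TATA box (TATAAA) was present for BCL2L1 and in 11.1% of all windows, a FOXO match (GTAAACA) for BCL2L11 and in 2.98%. The E2F match TTTGGCGC was in none of the 9 and in 0.553% of all windows. No match in these windows says nothing about sites elsewhere in a gene, and a match is a description of letters. The BCL2L11 window starts from a RefSeq start that lies 1536 bases inside the gene as the expression table draws it. This distance was 359 bases for BCL2, 301 for BID, 99 for BBC3 and 60 for BAX, and 26 or less for the other windows.

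BAX and 3 of the BH3-only genes stood well above their other levels in the His+6-MP library, whereas the prosurvival genes did not move together. Against vehicle, BBC3, PMAIP1 and BMF passed a fold threshold of 1 on the log2(FPKM + 1) scale. BAX missed it narrowly against vehicle and passed it against 6-MP and against His. No member passed it in the His or the 6-MP library against vehicle. In a bulk library, fewer cells of a type and less RNA per cell cannot be told apart, and this holds for each value that follows.

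**Figure D1:**
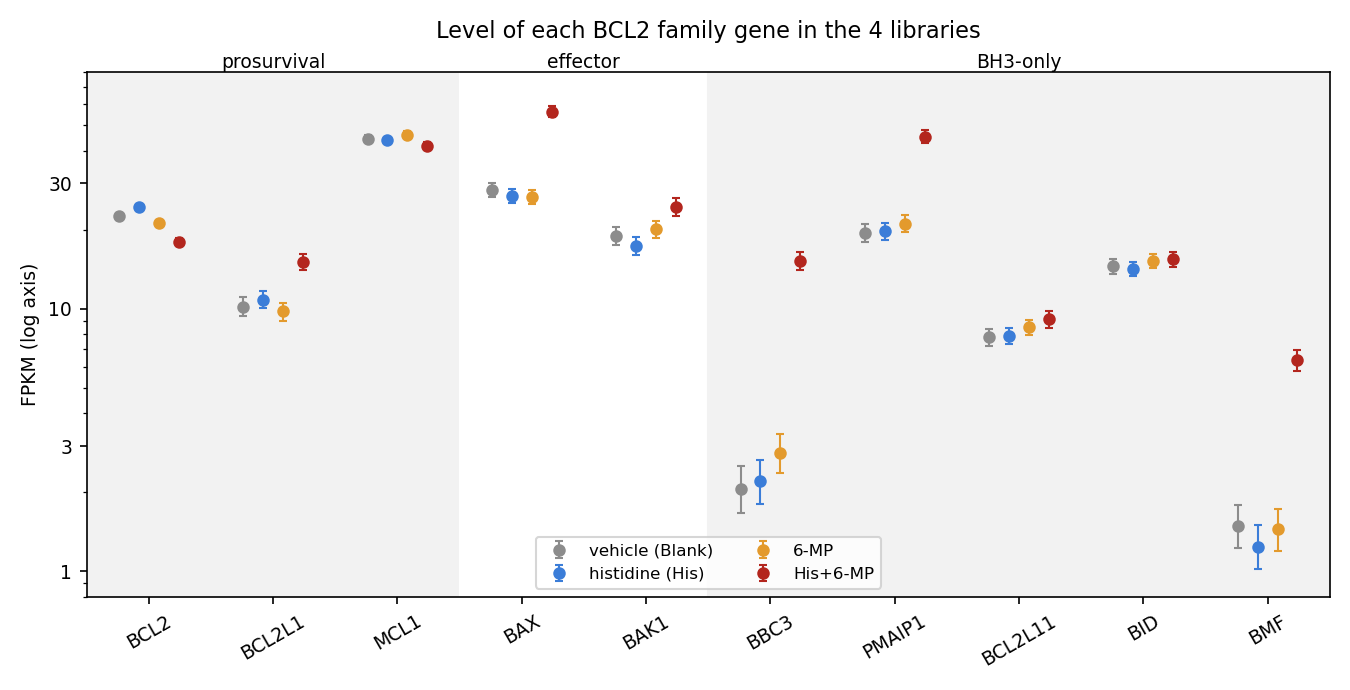
FPKM of each of the 10 members in the 4 libraries, on a log axis and grouped by role; points are 1 library each and bars are exact 95% intervals of the read count. The red His+6-MP points of BAX (56.3), BBC3 (15.2), PMAIP1 (45.2) and BMF (6.36) stand apart from the other 3 points of the same gene.

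The prosurvival genes are given first, each with its place in the hg38 coordinates of the table. MCL1 (ENSG00000143384, chr1:150560895-150579738, minus strand), a short-lived protein that restrains BAK1 and is a main partner of PMAIP1, had 44.4 FPKM with vehicle, 43.9 with His, 46.0 with 6-MP and 41.7 with His+6-MP. These came from 3956, 4231, 4388 and 3347 reads. The 4 levels lay within 1.10-fold of each other, with the His+6-MP library lowest. Its log2 fold change in His+6-MP was -0.09 against vehicle, -0.14 against 6-MP and -0.07 against His.

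BCL2 (ENSG00000171791, chr18:63123346-63320128, minus strand), the founding member of the family and the target of venetoclax, had 22.5 FPKM with vehicle, 24.3 with His, 21.1 with 6-MP and 18.0 with His+6-MP. The highest and lowest libraries, His and His+6-MP, differed 1.35-fold. BCL2 was the one member whose counting interval left out 0 in every comparison: the log2 read ratio to vehicle was 0.11 (95% interval 0.05 to 0.17) for His, -0.09 (-0.15 to -0.03) for 6-MP and -0.32 (-0.39 to -0.26) for His+6-MP. It is also among the most deeply counted members, at 2927 to 4748 reads, so that small differences show above counting error.

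BCL2L1 (ENSG00000171552, chr20:31664452-31723989, minus strand), which encodes the prosurvival BCL-XL and, by alternative splicing, a shorter form with the opposite action, was higher in the combined library, unlike the other 2. Its levels were 10.2 FPKM with vehicle, 10.8 with His, 9.77 with 6-MP and 15.1 with His+6-MP. The first 3 lay within 1.11-fold, and the combined library was above all of them. The log2 fold change in His+6-MP was 0.52 against vehicle, 0.58 against 6-MP and 0.44 against His. The values are per gene, so the long and short forms were not separated here.

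Both effector genes were highest in the His+6-MP library, by different amounts. BAX (ENSG00000087088, chr19:48954815-48961798, plus strand), which moves from the cytosol to the mitochondria and forms pores there, had 28.4 FPKM with vehicle, 26.9 with His, 26.7 with 6-MP and 56.3 with His+6-MP. The 3 other libraries lay within 1.07-fold of each other, and the combined library was 1.98 times the highest of them. On the log2(FPKM + 1) scale BAX was 0.96 above vehicle, just inside the threshold, 1.05 above 6-MP and 1.04 above His, both just past it. With library factors from the median ratio of genes the last 2 were both 0.91 and under the threshold.

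BAK1 (ENSG00000030110, chr6:33572547-33580293, minus strand), the effector that resides on the mitochondrial membrane, had 18.9 FPKM with vehicle, 17.4 with His, 20.1 with 6-MP and 24.4 with His+6-MP. The combined library was 1.22 times the highest of the others, and its log2 fold change against vehicle was 0.35. The ratio of BAX to BAK1 was 1.5 with vehicle, 1.55 with His, 1.33 with 6-MP and 2.31 with His+6-MP (95% interval 2.11 to 2.51).

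The BH3-only genes divided into 3 with large differences and 2 without. BBC3 (ENSG00000105327, chr19:47220822-47232766, minus strand) encodes PUMA, a BH3-only protein that binds all prosurvival members. It had 2.06 FPKM with vehicle, 2.21 with His, 2.82 with 6-MP and 15.2 with His+6-MP, from 94, 109, 138 and 623 reads. The His+6-MP level was 7.36 times that with vehicle, a log2 read ratio of 2.88 (95% interval 2.56 to 3.21), and 5.37 times that with 6-MP. Ranked by fold change on the log2(FPKM + 1) scale, where its value was 2.40, BBC3 was 18 from the top of 12750 genes averaging 1 FPKM or more. It was also the only BH3-only member whose interval left out 0 with a single agent: the log2 read ratio of 6-MP to vehicle was 0.45 (0.07 to 0.85).

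BMF (ENSG00000104081, chr15:40087890-40108892, minus strand), a BH3-only protein held on the cytoskeleton in healthy cells, had the lowest level of the 10 in every library. It had 1.49 FPKM with vehicle, 1.24 with His, 1.45 with 6-MP and 6.36 with His+6-MP, from 116, 105, 121 and 447 reads. The combined level was 4.28 times the vehicle level, and the log2 read ratio was 2.10 (95% interval 1.80 to 2.40). On the log2(FPKM + 1) scale its values were 1.57 against vehicle, 1.59 against 6-MP and 1.71 against His, and it ranked 189 from the top against vehicle.

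PMAIP1 (ENSG00000141682, chr18:59899996-59904305, plus strand) encodes NOXA, which binds mainly MCL1 and promotes its turnover. Its levels were 19.5 FPKM with vehicle, 19.7 with His, 21.1 with 6-MP and 45.2 with His+6-MP. The 3 other libraries lay within 1.08-fold of each other and the combined library was 2.14 times the highest of them. The log2 fold change in His+6-MP was 1.17 against vehicle, 1.07 against 6-MP and 1.16 against His. With median ratio factors the values were 1.02, 0.92 and 1.03, so that the one against 6-MP was under the threshold. With factors from all genes above 0 they were 0.94, 0.84 and 0.96, all under it, and the count of members past the fold against vehicle was 2 in place of 3. Among the BH3-only genes its difference in absolute FPKM was the widest in this comparison.

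BCL2L11 and BID, 2 BH3-only genes whose proteins can activate BAX and BAK1 directly, differed little. BCL2L11 (ENSG00000153094, chr2:111119378-111168445, plus strand), which encodes BIM, had 7.79 FPKM with vehicle, 7.89 with His, 8.50 with 6-MP and 9.11 with His+6-MP. Its log2 read ratio of His+6-MP to vehicle was 0.23 (95% interval 0.08 to 0.37), and to 6-MP 0.10 (-0.04 to 0.24). BID (ENSG00000015475, chr22:17734138-17774770, minus strand), whose protein is cut by caspase-8 and so links death receptors to the mitochondria, had 14.5 FPKM with vehicle, 14.2 with His, 15.2 with 6-MP and 15.5 with His+6-MP. Its intervals held 0 in all 5 comparisons, with the widest difference, His+6-MP against His, at 0.12 (-0.01 to 0.25).

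**Figure D2:**
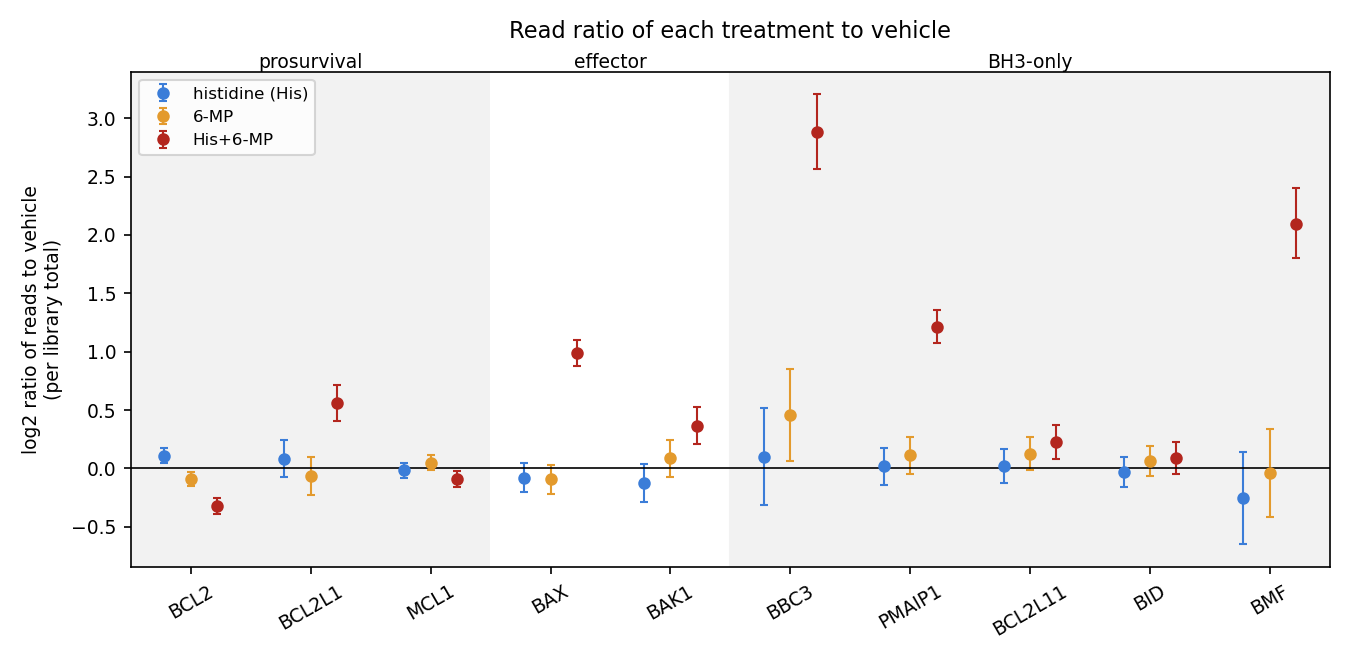
Log2 ratio of reads to vehicle, each per library total, for His, 6-MP and His+6-MP in the 10 members; points are the ratio of 2 libraries and bars its exact 95% counting interval. With His or 6-MP alone the points stay near 0, BBC3 with 6-MP (0.45) being the farthest, while with both agents they range from -0.32 for BCL2 to 2.88 for BBC3.

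Read against the whole table, the shares of the members were as follows. The background was the 12750 genes averaging 1 FPKM or more, called tested genes below. For His against vehicle 0 of 10 members and 1.33% of all tested genes passed the fold in either direction, and for 6-MP against vehicle 0 of 10 and 1.18%. For His+6-MP against vehicle 3 of 10 members were higher past the fold, with 5.01% of all tested genes, and 0 were lower, with 1.51%. Against 6-MP the counts were 4 of 10 higher with 4.82% of all, and 0 lower with 1.20%. Against His they were 4 of 10 higher with 4.15% of all, and 0 lower with 1.40%. The 3 comparisons share the His+6-MP library, so they are not separate evidence.

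Counting intervals were a looser rule. They left out 0 for 1 of 10 members in His against vehicle (21.7% of all tested genes) and for 2 of 10 in 6-MP against vehicle (18.0%). The counts were 9 of 10 members for His+6-MP against vehicle (63.6%), 8 of 10 against 6-MP (63.5%) and 9 of 10 against His (63.3%). Reads alone set apart most genes of the combined library, so a member past this rule is not unusual in it. The His+6-MP library gave the highest of the 4 levels for 8 of 10 members, against 53.8% of all tested genes, and the lowest for 2 of 10, BCL2 and MCL1, against 28.8%.

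The tested genes as a whole were also displaced in that library. Their median log2 fold change was 0.13 for His+6-MP against vehicle, against 0.01 for His and 0.004 for 6-MP. Relative to that median, BBC3 was 2.27 higher, BMF 1.43, PMAIP1 1.04, BAX 0.83, BCL2L1 0.39 and BAK1 0.22. BCL2L11 was 0.07 above the median and BID -0.05 from it. MCL1 was -0.22 and BCL2 -0.44 from it. The sign of BID and BCL2L11 depended on the scaling: with library factors from the median ratio of genes, BID against vehicle went from 0.08 to -0.06, and with factors from all genes above 0, BCL2L11 went from 0.20 to -0.02.

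**Figure D3:**
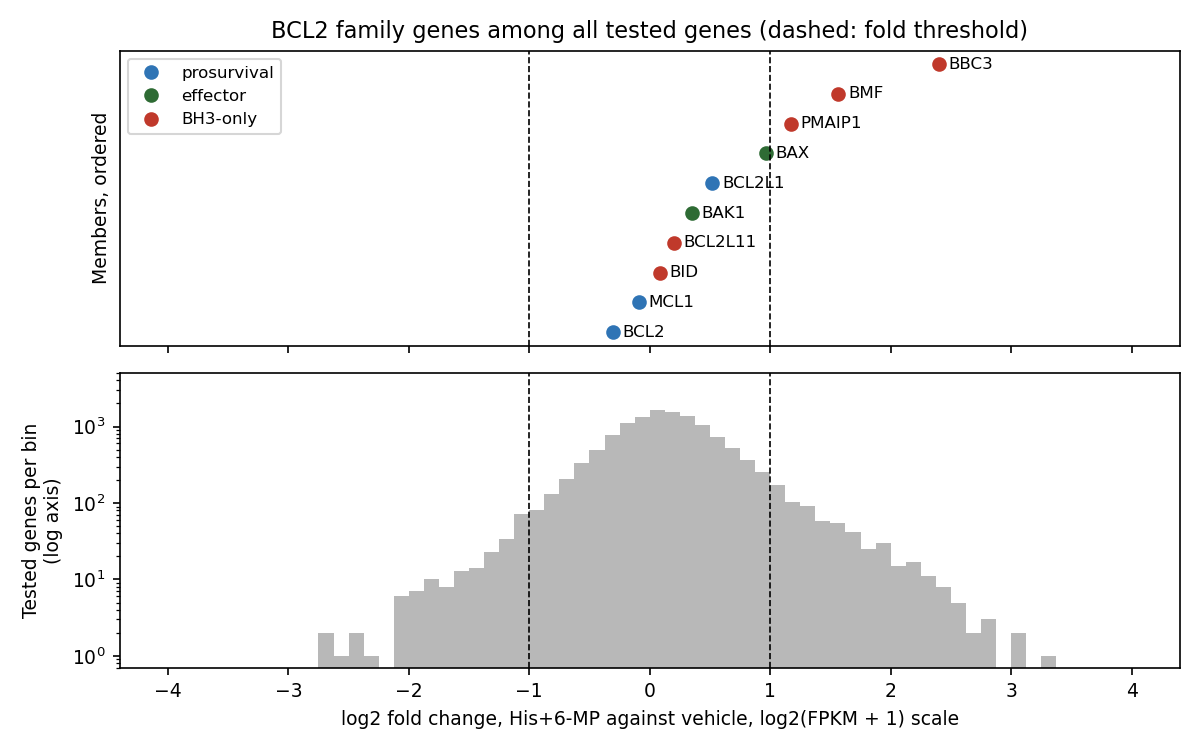
Upper panel, log2 fold change of His+6-MP against vehicle for each member, coloured by role; lower panel, the number of all 12750 tested genes in each bin of the same quantity, on a log count axis. BBC3 (2.40), BMF (1.57) and PMAIP1 (1.17) lie past the dashed threshold of 1, BAX (0.96) on its inner edge, and BCL2 (-0.31) and MCL1 (-0.09) below 0.

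By role, the medians for His+6-MP against vehicle were -0.09 for the 3 prosurvival genes, 0.66 for the 2 effectors and 1.17 for the 5 BH3-only genes. Within the BH3-only group the values ran from 0.08 to 2.40, so the group median hides BID and BCL2L11. For His against vehicle the 3 medians were 0.08, -0.10 and 0.02, and for 6-MP -0.06, -0.004 and 0.11.

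Summed levels show the same contrast in absolute terms. Prosurvival transcripts summed to 77.1 FPKM with vehicle, 79.0 with His, 76.9 with 6-MP and 74.7 with His+6-MP, a nearly flat total in which MCL1 took 55.6% to 59.8%. BCL2L1 took 13.2% of it with vehicle and 20.1% with His+6-MP, and BCL2 29.2% and 24.1%. The effector sum was 47.4, 44.2, 46.8 and 80.7 FPKM in the same order. BH3-only transcripts summed to 45.4, 45.3, 49.0 and 91.3 FPKM. BBC3 took 4.54% of the BH3-only sum with vehicle and 16.6% with His+6-MP, while the share of BID went from 32.0% to 16.9%.

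**Figure D4:**
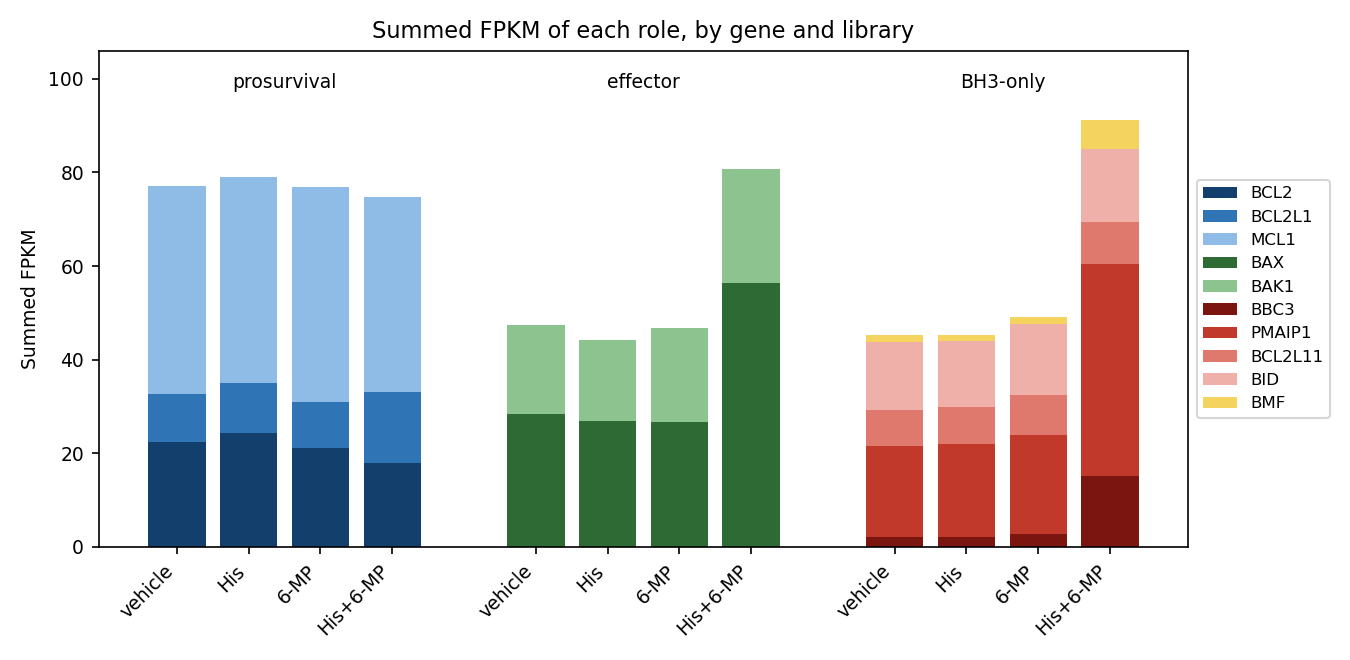
Summed FPKM of the prosurvival, effector and BH3-only members in each library, as bars from 0 split by gene. The prosurvival bars stay between 74.7 and 79.0, while the His+6-MP bars of the effectors (80.7) and BH3-only genes (91.3) stand above the other 3 of their role.

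Ratios between roles followed from these sums. The BH3-only to prosurvival ratio was 0.588 (95% counting interval 0.560 to 0.617) with vehicle, 0.573 (0.547 to 0.601) with His, 0.638 (0.609 to 0.668) with 6-MP and 1.22 (1.17 to 1.27) with His+6-MP. The vehicle interval overlapped those of both single agents, the His and 6-MP intervals did not overlap, and the combined interval lay above all 3. The effector to prosurvival ratio was 0.614, 0.560, 0.608 and 1.08 in the same order. BAX to BCL2, a ratio long used as a rough index of the balance, was 1.26, 1.10, 1.26 and 3.13. PMAIP1 to MCL1, a binding pair, was 0.439, 0.449, 0.459 and 1.08, and BCL2L1 to BCL2 was 0.453, 0.445, 0.462 and 0.837. These are ratios of transcripts and not of proteins.

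The order of the levels changed with the combination. With vehicle, His and 6-MP alike, MCL1 was highest, followed by BAX, BCL2, PMAIP1, BAK1, BID, BCL2L1, BCL2L11, BBC3 and BMF. The counting intervals of PMAIP1 and BAK1 overlapped in all 3 libraries. With 6-MP those of BCL2 and PMAIP1, and of BCL2L1 and BCL2L11, also overlapped, and with vehicle those of BBC3 and BMF. In the His+6-MP library the order was BAX, PMAIP1, MCL1, BAK1, BCL2, BID, BBC3, BCL2L1, BCL2L11 and BMF. There the intervals of PMAIP1 and MCL1 overlapped, as did those of BID and BBC3, and of BBC3 and BCL2L1. Overlap of single-gene intervals does not show that levels are equal: the ratio of PMAIP1 to MCL1 had a counting interval of 1.02 to 1.16.

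The combination was also set against the sum of the 2 single agents. The departure from additivity, the log2 value of His+6-MP less those of His and 6-MP plus that of vehicle, was 2.01 for BBC3, 1.74 for BMF, 1.13 for BAX and 1.05 for PMAIP1. These 4 of 10 were at or past 1, against 4.85% of all tested genes. It was 0.50 for BCL2L1, 0.39 for BAK1, 0.07 for BCL2L11 and 0.06 for BID. MCL1 had -0.12 and BCL2 -0.33, while the median over all tested genes was 0.11. Since the single agents moved the members little, these values nearly repeat the comparison with vehicle.

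BBC3 was the member with the widest range over the 4 libraries. Among protein-coding genes averaging 5 FPKM or more, TNFSF9 had the pattern nearest to it, and ATF5 was the third nearest. Likeness was the Euclidean distance over the 3 log2 differences to vehicle, among 6734 genes, and was 0.154 for TNFSF9 and 0.241 for ATF5. TNFSF9 had 2.22 FPKM with vehicle, 2.49 with His, 3.27 with 6-MP and 14.7 with His+6-MP. It averaged 5 FPKM or more only through the His+6-MP library. The filter thus let in such low genes only where they were high there, which favoured a pattern like that of BBC3. With 3 differences from 4 libraries, such nearness is a description only.

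Other members of the family were read from the same table. HRK, a BH3-only gene known mainly from neurons, had 2.48 FPKM with vehicle, 2.86 with His, 2.55 with 6-MP and 9.23 with His+6-MP. It was past the fold against all 3 other libraries. BAD, a BH3-only gene governed by phosphorylation, was at 1.64 FPKM with vehicle and 2.50 with His+6-MP. BCL2L2, the prosurvival BCL-W, was at 5.43 and 7.40 FPKM in the same libraries. The divergent members BCL2L12 and BCL2L13 had 25.9 and 10.6 FPKM with vehicle and 24.8 and 9.73 with His+6-MP. BCL2L10, BCL2L15, BIK and the effector BOK had a mean FPKM under 1.

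Downstream of the mitochondria, 15 of 17 genes of the apoptosome, caspases and their inhibitors were tested, and 0 passed the fold in any of the 5 comparisons. Of all tested genes, 1.18% to 6.53% passed it in either direction over these comparisons, so a count of 0 is not unusual for a list of this size. Their median for His+6-MP against vehicle was 0.25, with the median of all tested genes at 0.13. Chosen after their values were seen, CYCS, cytochrome c itself, had 55.4 FPKM with vehicle and 33.9 with His+6-MP, and BIRC5, an inhibitor of apoptosis that is also needed in mitosis, had 59.2 and 45.1. APAF1, the scaffold of the apoptosome, had 9.62 and 12.5. The 3 VDAC genes, which encode docking channels of the outer membrane, had 0 past the fold, against the same shares of all tested genes.

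Of 5 genes of the death receptor arm, 2 were higher past the fold in His+6-MP against vehicle (5.01% of all tested genes), 3 against 6-MP (4.82%) and 3 against His (4.15%). FAS had 0.589 FPKM with vehicle, 0.486 with His, 0.362 with 6-MP and 3.81 with His+6-MP. It averaged 1 FPKM or more only through the His+6-MP library, so the filter favoured its place in these counts. TNFRSF10B, a receptor for TRAIL, had 26.1, 24.7, 26.6 and 64.2 FPKM in the same order. TNFRSF10A, another TRAIL receptor, had 2.10, 1.85, 1.83 and 4.95, past the threshold against 6-MP and His but not against vehicle. FADD and CFLAR passed it in no comparison.

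Among genes known to regulate family transcripts, 6 of 7 were tested and 1 was higher past the fold in His+6-MP against vehicle (5.01% of all tested genes), against 6-MP (4.82%) and against His (4.15%). This was DDIT3, which encodes the stress factor CHOP. It had 3.10 FPKM with vehicle, 2.91 with His, 3.04 with 6-MP and 7.47 with His+6-MP. Of the others, chosen after their values were seen, ATF4 had 271, 261, 287 and 270 FPKM, and FOXO1 18.5, 20.3, 20.0 and 27.4. Among 7 genes that govern the stability of MCL1 or BCL2L11 protein, 0 passed the fold. In His+6-MP against vehicle 5.01% of all tested genes were higher past it and 1.51% lower. In that comparison 4 of the 7 were above 0 and 3 below. Chosen after their values were seen, HUWE1, a ligase for MCL1, had 41.9 FPKM with vehicle and 33.5 with His+6-MP, and MARCHF5 had 17.2 and 29.3.

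**Figure D5:**
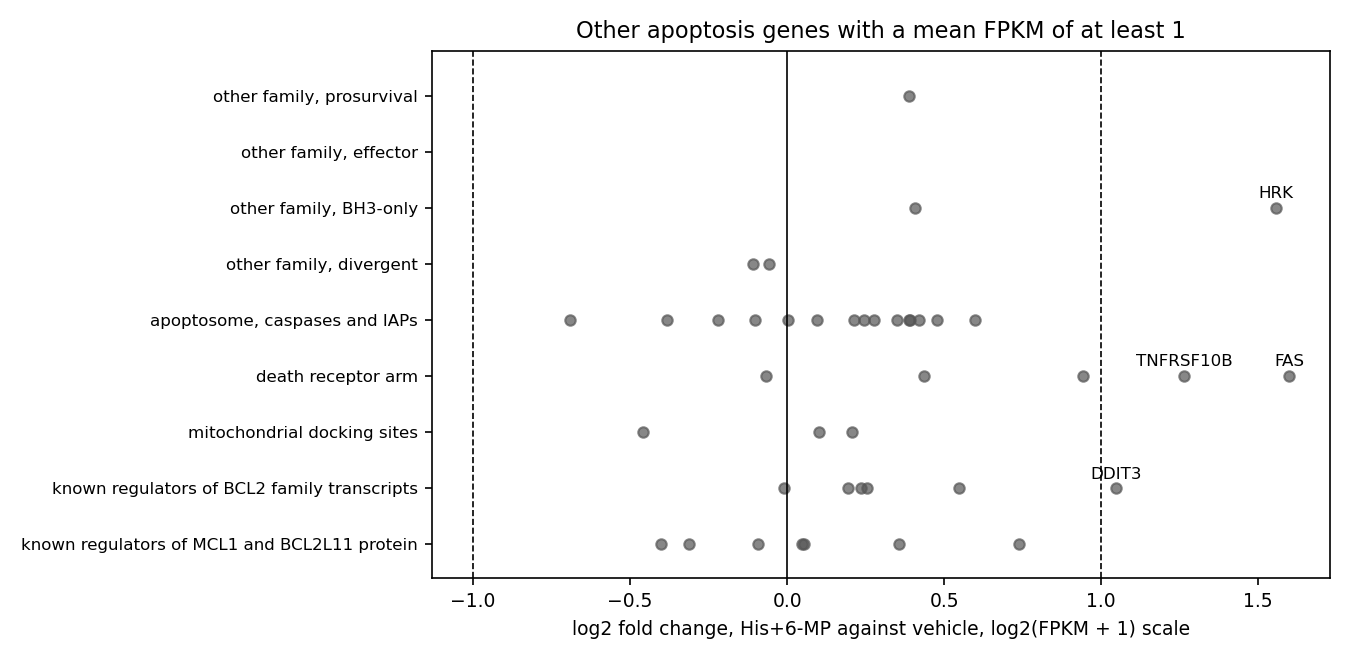
Log2 fold change of His+6-MP against vehicle for the other apoptosis genes averaging 1 FPKM or more, 1 point per gene and 1 line per list; dashed lines mark the threshold. HRK, FAS, TNFRSF10B and DDIT3 lie past it, of which FAS reached the mean only through its His+6-MP level (3.81); no gene of the other effector list reached the mean.

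The libraries differed in depth and in some markers. They held 12899122 (His+6-MP) to 15486376 (His) reads on genes, and 23635 to 23978 genes were above 0 in the first 3 and 25443 in the His+6-MP library. All 10 B-lineage markers found averaged 1 FPKM or more, and their summed FPKM ran from 1342 to 1402. Only 2 of 5 T-cell markers (CD4 and CD8A) and 2 of 3 erythroid markers were found, and these summed to at most 0.365 and 0.0647 FPKM. The 6 myeloid markers summed to 32.4 FPKM with vehicle, 34.5 with His, 30.4 with 6-MP and 63.9 with His+6-MP. Between vehicle and His+6-MP, ITGAM went from 3.14 to 19.2 FPKM, MPO from 27.7 to 41.0, LYZ from 0.324 to 1.39, CD33 from 0.456 to 0.999 and CSF1R from 0.624 to 1.25. CD14, at 1 to 4 reads in these libraries, was at 0.170 and 0.0470 FPKM. The myeloid sum, like BAX, BBC3, PMAIP1 and BMF, was highest in the His+6-MP library, and its part in their values was not tested. Genes that overlap BCL2, BCL2L1, MCL1, BAK1, BCL2L11 or BID in the table had at most 43 reads in a library, and none overlapped BAX, BBC3, PMAIP1 or BMF.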

How the data were processed

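RNA was sequenced from 4 libraries of Reh-6-MPR cells, 1 per condition, with a stranded poly(A) kit. The authors deposited FPKM per gene. The submitters' processing notes name Trimmomatic, HISAT2, Cufflinks and HTSeq and the build hg38 (GRCh38); versions are not given in the sources used here. The authors' comparison with DESeq2 was not repeated, as a condition has 1 library.

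Whole reads were recovered from the deposited FPKM values, which are whole multiples of 1 read per gene, within 0.002 reads for 29832 of 29833 genes. Wholeness fixes the reads of a gene only up to a common factor. The shortest whole length was used, and for 1534 genes it was multiplied, by at most 6, toward the length in GENCODE 29. The width of the counting intervals depends on this factor. The recovered sums exceed the library totals by under 1%, and the cause was not tested. The method was tested on simulated data, where recovery was scored up to a common factor. Fold changes are differences on the log2(FPKM + 1) scale, on which low genes appear to change less than they do. Genes averaging 1 FPKM or more were set against a threshold of 1 on the log2 scale. Intervals are exact Clopper-Pearson 95% intervals of the reads of 2 libraries, exact Poisson intervals of levels, and for ratios of sums the delta method. They cover counting error only.

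Members and lists were chosen with earlier results of these data known. The named genes were the 10 members, 2 of the 3 genes nearest to the member of widest range, the other family genes, and list genes past the threshold; further genes were chosen after their values were seen. Promoter windows are from RefSeq. Python 3.11.15, numpy 2.4.6, pandas 2.3.3 and scipy 1.17.1 were used. Some genes of the lists are not reported here by name.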

Additional observations from a re-analysis of the deposited data

Results flagged for a closer look

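BCL2 moved in opposite directions with histidine depending on whether 6-MP was present. Its log2 fold change was 0.11 for His against vehicle and -0.22 for His+6-MP against 6-MP, and the counting intervals of both read ratios left out 0. Such intervals left out 0 for 21.7% of all tested genes in the first comparison and 63.5% in the second. The departure from additivity of BCL2 was -0.33, and 15.3% of all tested genes were at or below it, so BCL2 was not unusual here. Each value compares 1 library with 1 other, and the difference between them was not tested.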

How the results depend on the processing

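The counts of members past the fold rest on the scaling. With library factors from the median ratio of 12610 genes, 2 members in place of 4 passed against 6-MP, with BAX and PMAIP1 under 1. Against His, 3 passed, since BAX was under 1, and 3 had a departure from additivity of at least 1, since PMAIP1 was under it. With factors from all 19624 genes above 0, 2 passed against 6-MP, 2 against His and 2 for the departure from additivity, in place of 4 each, and 2 against vehicle in place of 3. BBC3 and BMF passed in both; the genes behind either set of factors were chosen after seeing the data. Over the alternatives tried (pseudocount, filters, scaling, TPM, a fold of 1.5, protein-coding genes), 2 to 4 members passed in each comparison of His+6-MP and 0 in those of a single agent. All genes past the fold ran from 4.11% to 21.3% for His+6-MP against vehicle, from 3.65% to 20.3% against 6-MP, from 3.55% to 19.4% against His, from 0.190% to 6.46% for His and from 0.150% to 6.47% for 6-MP against vehicle. Under the median ratio, 462 genes were higher and 275 lower in His+6-MP against vehicle, 433 and 225 against 6-MP, and 403 and 247 against His. With geometric means in place of sums, the BH3-only to prosurvival ratio was 0.321 with vehicle, 0.306 with His, 0.355 with 6-MP and 0.662 with His+6-MP, so its place above or below 1 depends on this choice while the order of the libraries does not. Of 312 alternative values for single members and role medians, 240 were labelled the same, 72 moved, and 0 called values reversed. Role medians have no counting error, so their labels do not measure it. With median ratio factors, the effector median for 6-MP against vehicle was labelled moved, from -0.004 to -0.013. With factors from all genes above 0, the BH3-only median for His+6-MP against vehicle was labelled the same, from 1.17 to 0.94. Of 60 member values, 9 changed sign under some scaling, all of PMAIP1, BCL2L11 or BID. No paired analysis was possible because no condition was sequenced more than once, which also leaves no replicate to omit.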
